A study of Mus musculus with 48 samples.

Results

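The genes described here are 42 that carry out or govern the burning of fatty acids in liver, most of them known targets of PPARa, the nuclear receptor encoded by Ppara. The rule that picks them goes by gene name and uses no measured value, but the members were chosen with earlier results of these data known. Shares of members set beside shares of all genes are therefore descriptive. All 42 were present among the 49315 genes of the deposited values. By role they comprise 2 regulators, 6 genes of fatty acid activation and the carnitine shuttle, 9 of the mitochondrial beta-oxidation spiral, 5 auxiliary or electron transfer genes of the mitochondrion, 7 genes of peroxisomal oxidation, 7 acyl-CoA thioesterases and acyltransferases, 1 gene of ketone body metabolism (Bdh1) and 5 other PPARa targets. All 42 passed the filter on low values (at least 1 TPM in at least 6 libraries) and were among the 15820 genes tested.

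PPARa pairs with the retinoid X receptor and is activated by fatty acids, and in fasting or fat feeding it raises the genes by which hepatocytes take up, oxidise and convert fatty acids to ketone bodies. Long-chain fatty acids enter mitochondria through the carnitine shuttle and are shortened there in repeated turns of the beta-oxidation spiral, while very long-chain and unusual fatty acids are first shortened in peroxisomes. Thioesterases release free fatty acid and CoA from acyl-CoA, and the ketone bodies made from acetyl-CoA feed other organs.

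Poly(A) RNA was sequenced from 48 livers of C57BL/6J mice, in 8 groups of 6 that crossed sex (male or female), diet (low-fat, LFD, or high-fat, HFD) and exposure (vehicle or mixture). The mixture was given weekly for 12 weeks and held 3 ligands of the aryl hydrocarbon receptor: TCDD at 10 ng/kg, the furan PeCDF at 80 ng/kg and the biphenyl PCB126 at 140 ng/kg. The question was how the liver transcriptome changes with this exposure in each sex and on each diet; mouse ages, diet composition and dosing route are not recorded in the labels. The animal numbers in the library names run separately within each diet, so diet and a possible cohort cannot be told apart. In whole liver, fewer cells of a type and less RNA per cell cannot be told apart either.

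Values were deposited as TPM (transcript abundance scaled to the same total in each library), which are corrected for gene length and keep no sequencing depth, so the depth of each library is unknown. Each library held 13180 to 14713 genes at 1 TPM or more. The summed TPM of 9 hepatocyte genes (of 10 listed) was 64360 to 164500, so the tissue label held in every library. In 3 libraries, male HFD mixture replicate 6, female LFD vehicle replicate 3 and female LFD mixture replicate 3, 15 skeletal muscle genes summed to 25180, 9423 and 1951 TPM, against 9.904 to 805.5 TPM in the other 45. Counts of called members in the comparisons these libraries enter are given with and without them, as are the single values that they set most. Differences are on the log2(TPM + 1) scale, which understates the change of genes near 1 TPM, and were tested with limma over all 15820 genes. A gene was called higher or lower where the Benjamini-Hochberg adjusted p was under 0.05. The replicates are separate mice as far as the labels say, and the p-values reflect only how much these libraries vary, which may be in part technical.

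Among the thioesterases, 4 members lie in tandem on the plus strand of chromosome 12 (GRCm38): Acot2 (ENSMUSG00000021226) at chr12:83987861-83993873, Acot1 (ENSMUSG00000072949) at chr12:84009490-84018371, Acot4 (ENSMUSG00000052392) at chr12:84038379-84048601 and Acot3 (ENSMUSG00000021228) at chr12:84052144-84060402. Acot12 (ENSMUSG00000021620) is on the plus strand of chromosome 13 at chr13:91741512-91786148. The 120 bases before each annotated gene start are shown because these are among the members whose levels differed most between the sexes and diets, beside a relative, Acot12, that differed less. The starts are those of GENCODE. Sequences are from RefSeq (GRCm38.p6), 5′ to 3′ on the plus strand. Capitals mark a match, on either strand and with at most 2 mismatches in 12 letters, to the direct repeat that PPARa binds with its partner, AGGTCA followed after 1 base of any kind by AGGTCA again.
Acot2, chr12:83987741-83987860: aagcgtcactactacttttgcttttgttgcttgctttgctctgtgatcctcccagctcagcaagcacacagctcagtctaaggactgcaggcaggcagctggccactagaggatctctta
Acot1, chr12:84009370-84009489: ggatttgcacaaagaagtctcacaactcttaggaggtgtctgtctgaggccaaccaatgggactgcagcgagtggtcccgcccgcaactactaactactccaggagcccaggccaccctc
Acot4, chr12:84038259-84038378: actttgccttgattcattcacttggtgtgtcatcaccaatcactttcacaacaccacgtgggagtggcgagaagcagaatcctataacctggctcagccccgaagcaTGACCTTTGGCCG
Acot3, chr12:84052024-84052143: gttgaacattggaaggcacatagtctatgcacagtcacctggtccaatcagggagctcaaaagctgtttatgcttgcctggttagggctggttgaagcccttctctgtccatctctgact
Acot12, chr13:91741392-91741511: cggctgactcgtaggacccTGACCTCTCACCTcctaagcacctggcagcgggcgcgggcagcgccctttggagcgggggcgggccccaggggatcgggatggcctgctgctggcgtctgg
The match before Acot4 had 2 mismatches and began 13 bases before the start, and that before Acot12 had 1 mismatch. No such match lay in the windows printed for Acot1, Acot2 and Acot3. The RefSeq table held promoters for 35 of the 42 members, in 39 windows, and not for Angptl4, Crat, Cpt1b, Acaa2, Vnn1, Hsd17b4 and Decr1. Over the 250 bases before the start, 4 of the 39 windows (10.3%) held a match with at most 2 mismatches, against 1063 of all 32851 windows (3.24%), and 1 of 39 (2.56%) against 159 (0.484%) with at most 1. The aryl hydrocarbon receptor core GCGTG, on either strand, lay in 16 of the 39 windows (41.0%) and in 28.2% of all windows, while median GC content was 58.8% and 52.4%. These counts describe letters, not binding.

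Some members share sequence with other genes, so their levels depend on how reads were assigned, a step the sources do not state. Of all 50-base windows of its transcripts, Acot2 shared 24.5% with Acot1, Acaa1b shared 30.5% with Acaa1a, and Etfb shared 43.8% with Gm45233, a gene model that overlaps it. Cpt1b shared 78.6% with the overlapping model Gm44502. The acyltransferases Acnat1 and Acnat2, side by side on the minus strand of chromosome 4 (chr4:49447105-49473912 and chr4:49379840-49408151), shared 24% and 30% of windows with other genes. With all other genes together, Acot1 shared 19.2% of its windows, Acot3 19.1% and Hadhb 19.7%. Values of all these members are therefore uncertain.

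The highest levels among the members belonged to Acaa1b, a peroxisomal thiolase, at group means of 884 ± 204 to 3183 ± 566 TPM (SD, n = 6), and to Acaa2, the mitochondrial thiolase, at 1033 ± 90.2 to 1406 ± 114 TPM. The lowest belonged to Cpt1b, the muscle form of carnitine palmitoyltransferase, whose group medians were 0.426 to 1.14 TPM. Summed over the 42 members, LFD vehicle males had 6458 ± 942 TPM (SD, n = 6) and LFD vehicle females 8524 ± 1194 TPM. On the HFD the sums were 11910 ± 839.9 TPM in vehicle males and 12220 ± 732 TPM in vehicle females. The LFD sums of single livers overlapped between the sexes, at 5407 to 7781 TPM in males and 7432 to 10600 TPM in females, and the sums were not tested. Abundant members, Acaa1b above all, weigh most in these sums. With the mixture the sums were 7273 ± 536, 9350 ± 1192, 12350 ± 767 and 11770 ± 707 TPM in LFD males, LFD females, HFD males and HFD females, each within 1 SD of its vehicle group. Without the 3 libraries with muscle transcripts the sums were 8743 ± 1194, 9619 ± 1109 and 12510 ± 726.7 TPM (SD, n = 5) in LFD vehicle females, LFD mixture females and HFD mixture males. Of the 42 group means, 3, 3 and 7 then moved by more than 10%, the most being those of Cpt1b and Pdk4.

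**Figure D1:**
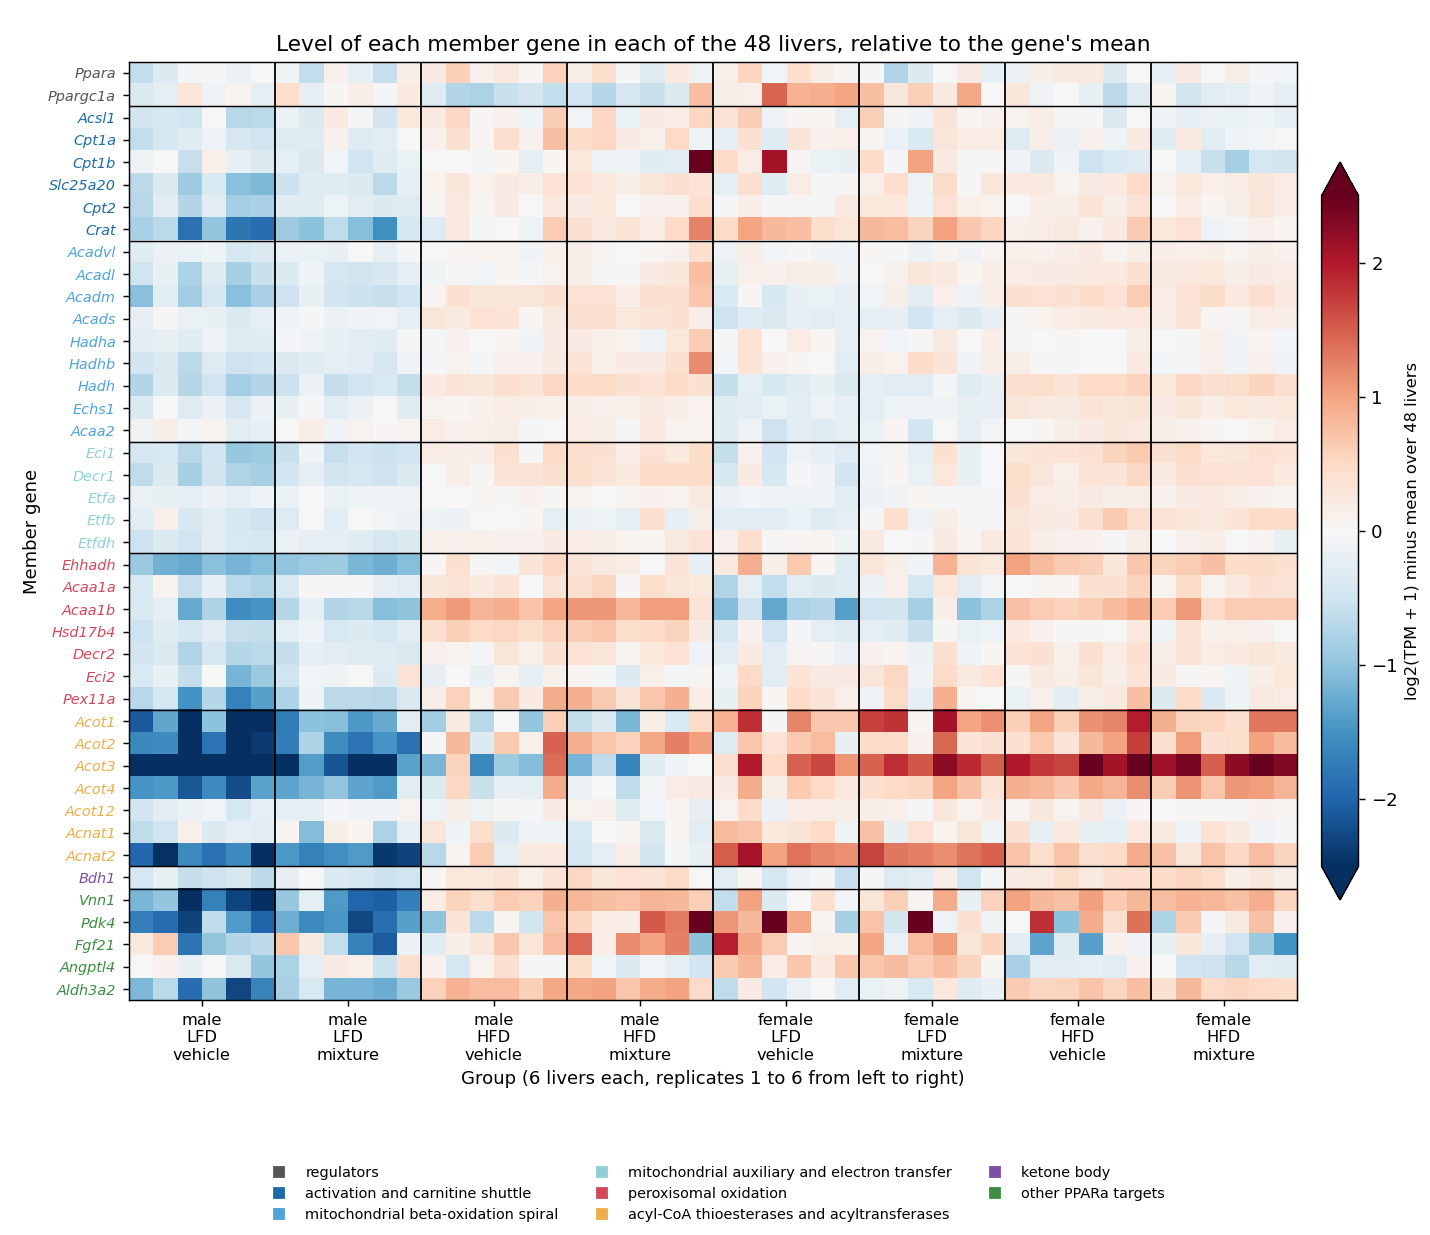
Heat map of each member's log2(TPM + 1) minus the gene's mean over the 48 livers; rows are genes ordered by role and columns are the 6 livers of each group. Many members are low in LFD vehicle males, and some, such as Acaa1b and Hadh, are high in the HFD groups of both sexes. Others, such as Acnat2 and Angptl4, are highest in LFD females.

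In vehicle males, the HFD livers held more of most members than the LFD livers. Of the 42 members 35 rose and 0 fell, where 25.6% of all 15820 genes tested rose and 5.82% fell (31.4% called in all). The median log2 difference was 0.71 over the members and 0.11 over all genes. In 30 members every HFD liver lay above every LFD liver, which held for 13.4% of all genes. Peroxisomal oxidation (7 of 7 members rose), thioesterases and acyltransferases (6 of 7) and the mitochondrial spiral (8 of 9) moved together, with median log2 differences of 0.95, 2.07 and 0.43.

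Each of the 7 peroxisomal members rose in males on the HFD, and their summed TPM went from 1886 ± 482 to 4981 ± 389. Acaa1b weighs most in this sum, so it does not describe the 7 members evenly. Acaa1b, which cleaves acetyl-CoA from peroxisomal 3-ketoacyl-CoA, was at 1284, 1425, 703, 982, 573 and 605 TPM in the LFD livers, replicates 1 to 6, and at 3154, 3515, 3025, 3142, 2748 and 3306 TPM in the HFD livers. Each HFD liver was above each LFD liver, a log2 difference of 1.85 (SE 0.18, adjusted p = 1.34e-10). Pex11a, a membrane protein of peroxisome division, was at 36.9 to 88.6 TPM (median 59.9) on the LFD and 128 to 232 TPM (median 160.3) on the HFD, a log2 difference of 1.499 (SE 0.20, adjusted p = 1.14e-07). Ehhadh, the L-bifunctional enzyme that hydrates and oxidises peroxisomal enoyl-CoA, was at 164 to 209.6 TPM (median 183) on the LFD and 380.3 to 571 TPM (median 453) on the HFD, a log2 difference of 1.32 (SE 0.14, adjusted p = 7.23e-10). The groups of both genes did not overlap. Hsd17b4, the D-bifunctional enzyme, was at 282 ± 26.7 and 546 ± 28.4 TPM and rose by 0.95 (SE 0.09, adjusted p = 2.84e-11). Decr2, the peroxisomal 2,4-dienoyl-CoA reductase, rose by 0.72 (SE 0.09, adjusted p = 2.74e-08) from 174 ± 20.5 TPM. Acaa1a, the close relative of Acaa1b, rose by 0.68 (SE 0.12, adjusted p = 1.95e-05) from 100.3 ± 23.6 TPM. Eci2, the peroxisomal enoyl-CoA isomerase, rose by 0.47 (SE 0.14, adjusted p = 0.00816), and its groups overlapped.

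The thioesterases showed the widest differences of any role in males on the HFD. Acot3, a peroxisomal thioesterase, was at 4.45, 5.84, 1.12, 6.42, 0.542 and 3.73 TPM in the 6 LFD livers and 24.5, 81.2, 17.4, 29.2, 25.4 and 147 TPM in the 6 HFD livers. No LFD liver reached the lowest HFD liver, and the log2 difference was 3.34 (SE 0.40, adjusted p = 1.04e-08). Acot2, the mitochondrial form, was at 1.20 to 4.66 TPM (median 2.94) on the LFD and 12.3 to 45.3 TPM (median 21.4) on the HFD, a log2 difference of 2.61 (SE 0.26, adjusted p = 2.06e-10). Acot1, the cytosolic form, was at 3.53 to 32.8 TPM (median 12.0) and 34.4 to 104 TPM (median 54.4), a log2 difference of 2.07 (SE 0.37, adjusted p = 2.28e-05); its groups did not overlap. Acot4, a peroxisomal form that also acts on succinyl-CoA, was at 8.43 to 16.4 TPM (median 14.2) and 28.6 to 81.9 TPM (median 36.8), a log2 difference of 1.71 (SE 0.19, adjusted p = 3.54e-09). The acyltransferase gene Acnat2 rose by 2.08 (SE 0.19, adjusted p = 1.73e-11), with levels of 11.2 to 25.6 TPM (median 20.4) on the LFD and 48.9 to 124 TPM (median 89.1) on the HFD. Its neighbour Acnat1 was not called, with a log2 difference of 0.33 (SE 0.18, adjusted p = 0.164). Acot12, a cytosolic acetyl-CoA hydrolase, rose by 0.29 (SE 0.08, adjusted p = 0.00658).

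Median log2 differences in males were 0.72 over the shuttle genes, 0.43 over the spiral and 0.53 over the auxiliary genes of the mitochondrion, beside 0.95 over the peroxisomal genes. In the carnitine shuttle, Cpt1a, which makes the first and controlling acylcarnitine transfer, was at 225 to 322 TPM (median 258) on the LFD and 361 to 589 TPM (median 413) on the HFD, a log2 difference of 0.70 (SE 0.13, adjusted p = 4.79e-05). Slc25a20, the carnitine carrier of the inner membrane, rose by 0.94 (SE 0.11, adjusted p = 8.5e-09), and Cpt2, which remakes acyl-CoA inside, rose by 0.75 (adjusted p = 4.87e-09). Crat, which handles short acyl groups, was at 10.2 to 25.0 TPM (median 15.5) and 32.4 to 63.6 TPM (median 40.3), a log2 difference of 1.41 (SE 0.19, adjusted p = 1.2e-07). Acsl1, which activates long-chain fatty acids to acyl-CoA, rose by 0.69 (SE 0.14, adjusted p = 0.000177). Cpt1b was not called (0.16, adjusted p = 0.793).

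Within the spiral, the first step for medium-chain substrates, Acadm, was at 134 to 229 TPM (median 155) on the LFD and 290.3 to 362 TPM (median 342) on the HFD in males, a log2 difference of 1.03 (SE 0.10, adjusted p = 6.18e-11). Hadh, the short-chain 3-hydroxyacyl-CoA dehydrogenase, rose by 0.996 (SE 0.07, adjusted p = 9.55e-14), from 125 ± 16.2 to 248 ± 18.7 TPM. Hadhb (0.55, SE 0.11, adjusted p = 7.86e-05) and Hadha (0.29, SE 0.08, adjusted p = 0.00416) rose too. They encode the subunits of the trifunctional protein and start head to head on chromosome 5 (positions 30155248 and 30155162). Acadl, the long-chain dehydrogenase, rose by 0.52 (SE 0.09, adjusted p = 1.85e-05). Acads, the short-chain form, rose by 0.43 (adjusted p = 5.49e-07), the hydratase Echs1 by 0.34 (adjusted p = 1.7e-06) and the very long-chain dehydrogenase Acadvl by 0.29 (adjusted p = 0.000112). Acaa2, which ends each turn, was not called (0.14, adjusted p = 0.137). Of the auxiliary enzymes that prepare unsaturated fatty acids for the spiral, Eci1 rose by 0.87 (SE 0.11, adjusted p = 1.71e-08). Decr1, the mitochondrial dienoyl-CoA reductase, rose by 0.85 (adjusted p = 9.96e-10). Etfdh, which passes the electrons to ubiquinone, rose by 0.53 (SE 0.07, adjusted p = 5.17e-08), and Etfa, a subunit of the electron transfer flavoprotein, by 0.22 (adjusted p = 9.09e-05). The partner subunit Etfb was not called (0.21, adjusted p = 0.0878).

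Bdh1, which interconverts acetoacetate and 3-hydroxybutyrate, was at 142 to 196 TPM (median 162) on the LFD and 231 to 286 TPM (median 269.8) on the HFD in males, a log2 difference of 0.69 (SE 0.10, adjusted p = 1.22e-06). Vnn1, a pantetheinase often used as a readout of PPARa, was at 40.5, 45.9, 9.31, 27.5, 17.6 and 14.0 TPM in the LFD livers and 103, 133, 123, 142, 136 and 167 TPM in the HFD livers. The groups did not overlap, with a log2 difference of 2.52 (SE 0.26, adjusted p = 5.44e-10). Aldh3a2, which oxidises fatty aldehydes, was at 56.8 to 175 TPM (median 107) and 418 to 546 TPM (median 478), a log2 difference of 2.202 (SE 0.17, adjusted p = 1.77e-13). Pdk4, which restrains glucose oxidation by inhibiting pyruvate dehydrogenase, rose by 1.49 (SE 0.55, adjusted p = 0.0343) between overlapping groups. The hormone Fgf21 (0.86, adjusted p = 0.115) and Angptl4, an inhibitor of lipoprotein lipase (0.27, adjusted p = 0.291), were not called. Ppara itself rose by 0.49 (SE 0.15, adjusted p = 0.00936), with levels of 66.8 to 103 TPM (median 96.7) on the LFD and 105 to 157 TPM (median 121) on the HFD, without overlap. Ppargc1a, the coactivator PGC-1a, differed by -0.48 (SE 0.19, adjusted p = 0.0524) and was not called; it was called lower under 5 of the 6 alternative analyses.

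With trimmed-mean scaling of the TPM, which moves the median difference of all genes from 0.114 to -0.003, 28 members rose and 1 (Ppargc1a) fell; Ppara, Acadvl, Hadha, Etfa, Eci2, Acot12 and Pdk4 lost their calls, and the share of higher calls among all called genes went from 81.5% to 53.2%. Eci2 also lost its call with only the groups compared (adjusted p = 0.0574), and Pdk4 without the filter (adjusted p = 0.0764). The diet groups also differed in marker genes of other tissues: the sum of 6 adipose genes was 0.537 to 17.0 TPM on the LFD and 27.9 to 331 TPM on the HFD, that of 6 stellate cell genes 129.7 to 171.1 and 234.9 to 299.7 TPM, that of 9 exocrine pancreas genes 18.6 to 37.3 and 12.9 to 17.9 TPM, and that of 9 hepatocyte genes 104700 to 154800 and 78890 to 90760 TPM, and their part in the result was not tested.

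In vehicle females on the HFD more members rose than fell, and the share that fell was no greater than that of all genes. Of the 42, 18 rose and 4 fell, where 14.4% of all genes rose and 13.5% fell (28% called). The median log2 difference was 0.22 over the members and -0.01 over all genes. The groups did not overlap, in the higher direction, for 13 members (6.11% of all genes) and, in the lower, for 2 (4.87%). Mitochondrial spiral (6 of 9 rose), auxiliary (4 of 5) and peroxisomal (5 of 7) genes rose. In the main fit 0 of the 6 shuttle genes and 0 of the 7 thioesterases and acyltransferases were called higher. Acot3 (0.90) and Acot4 (0.44) were called higher by limma under 2 alternatives. Their adjusted p were 0.0297 and 0.0286 with only the groups compared, and 0.0383 and 0.0426 with the replicate block.

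The largest rise in females was that of Acaa1b, at 790.1, 1167, 688, 980.3, 1023 and 656 TPM in the 6 LFD livers and 2772, 2582, 2493, 2592, 2902 and 3163 TPM in the 6 HFD livers. Every HFD liver exceeded every LFD liver, with a log2 difference of 1.66 (SE 0.18, adjusted p = 2.81e-09). Acaa1a was at 77.2 to 110.4 TPM (median 103) on the LFD and 130.1 to 193 TPM (median 155) on the HFD, a log2 difference of 0.67 (SE 0.12, adjusted p = 3.78e-05). Hadh rose by 0.81 (SE 0.07, adjusted p = 2.28e-11), with levels of 128 to 171 TPM (median 153) on the LFD and 245 to 289 TPM (median 269) on the HFD. Eci1 (0.70, adjusted p = 1.98e-06), Acadm (0.65, adjusted p = 2.5e-06) and Decr1 (0.54, adjusted p = 1.5e-05) rose as members of the mitochondrial set. So did Echs1 (0.51), Acads (0.49), Acaa2 (0.45), Etfa (0.35), Etfb (0.63) and Acadvl (0.17), with adjusted p from 6.3e-10 for Echs1 to 0.028 for Acadvl. Bdh1 rose by 0.56 (SE 0.10, adjusted p = 5.72e-05), with levels of 151 to 235 TPM (median 194) on the LFD and 259.6 to 306 TPM (median 281) on the HFD. Aldh3a2 rose by 0.85 (SE 0.17, adjusted p = 0.00013) and Hsd17b4 by 0.35 (SE 0.09, adjusted p = 0.00227). Decr2 rose by 0.38 (adjusted p = 0.00136). Ehhadh (adjusted p = 0.0377) and Vnn1 (adjusted p = 0.0234) rose by 0.38 and 0.78, and without female LFD vehicle replicate 3 their adjusted p were 0.0554 and 0.0595. In that analysis 17 members rose and 5 fell, with Acadl among the former and Cpt1b among the latter. Acadvl lost its call with trimmed-mean scaling (adjusted p = 0.083), Ehhadh and Vnn1 without the filter (adjusted p = 0.0807 and 0.0528) and Ehhadh with only the groups compared (adjusted p = 0.164).

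The 4 members that fell in females on the HFD were Angptl4, Acnat2, Fgf21 and Ppargc1a. Angptl4 was at 82.0 to 129 TPM (median 115) on the LFD and 41.0 to 78.0 TPM (median 60.2) on the HFD, a log2 difference of -0.83 (SE 0.18, adjusted p = 0.000507). Acnat2 was at 161 to 336 TPM (median 194) and 105 to 152 TPM (median 122), a log2 difference of -0.76 (SE 0.19, adjusted p = 0.00211), opposite in sign to its rise in males. Fgf21 was at 35.8, 17.4, 13.9, 9.003, 9.46 and 9.38 TPM and 6.89, 2.82, 6.62, 2.71, 9.30 and 7.98 TPM, a log2 difference of -1.19 (SE 0.42, adjusted p = 0.0293); the call was lost without the filter on low values (adjusted p = 0.0654). Ppargc1a was at 6.25 to 17.1 TPM (median 11.2) and 3.21 to 7.04 TPM (median 5.01), a log2 difference of -0.90 (SE 0.19, adjusted p = 0.000372). Its highest LFD value was that of replicate 3, and without that library the log2 difference was -0.76 (adjusted p = 0.000422). Among members not called in females, Cpt1a was at 279 to 451 TPM (median 377) on the LFD and 277 to 406 TPM (median 348) on the HFD (-0.09, adjusted p = 0.677). Pex11a was at 106 to 177 TPM (median 142) and 101 to 204 TPM (median 133) (-0.08, adjusted p = 0.816). The sum of the hepatocyte genes in females was 135300 to 164500 TPM on the LFD and 92790 to 106100 TPM on the HFD, and that of 6 endothelial genes was 140.8 to 242.0 and 115.4 to 139.7 TPM. Adipose genes summed to a median of 0.801 TPM on the LFD and 9.67 TPM on the HFD, with overlap, and the part of these markers in the result was not tested.

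The difference between the diet effects of the sexes was itself tested, as the female HFD-minus-LFD difference minus the male one. It was called for 26 members, 2 of them higher (Etfb and Acaa2) and 24 lower, where 18.2% of all genes were called (3.47% higher, 14.8% lower). The median was -0.56 over the members and -0.12 over all genes. All 7 thioesterases and acyltransferases, 5 of 6 shuttle genes (all but Cpt1b) and 4 of 5 other PPARa targets (all but Pdk4) had the smaller or opposite diet effect in females. In the mitochondrial spiral only Hadha and Hadhb did, of 9 members, and among peroxisomal genes Ehhadh, Hsd17b4, Decr2 and Pex11a did, of 7.

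The largest such differences were those of Acnat2 (-2.84, SE 0.27, adjusted p = 2.62e-09), Acot3 (-2.44, SE 0.56, adjusted p = 0.00185) and Acot2 (-2.12, SE 0.37, adjusted p = 8.12e-05). Fgf21 (-2.05, SE 0.59, adjusted p = 0.0123), Acot1 (-1.87, SE 0.52, adjusted p = 0.00948) and Crat (-1.77, SE 0.27, adjusted p = 8.2e-06) followed. Vnn1 differed by -1.74 (SE 0.37, adjusted p = 0.000921), Pex11a by -1.58 (SE 0.28, adjusted p = 0.000109) and Aldh3a2 by -1.35 (SE 0.24, adjusted p = 8.41e-05). The 2 members with the opposite sign were Etfb and Acaa2. Etfb differed by 0.42 (SE 0.14, adjusted p = 0.0255) and Acaa2 by 0.30 (SE 0.10, adjusted p = 0.0384). For 10 members that rose in both sexes on the HFD the difference of the diet effects was not called: Hadh, Acadm, Acads, Echs1, Acadvl, Eci1, Decr1, Etfa, Acaa1a and Acaa1b in oxidation, and the same held for Bdh1. Acaa1b, for one, differed by -0.18 (SE 0.26, adjusted p = 0.692). Of the 10, Acadm (-0.38, adjusted p = 0.0213) and Decr1 (-0.31, adjusted p = 0.0479) were called with the replicate block, and Echs1 (0.31, adjusted p = 0.0129) and Etfa (0.28, adjusted p = 0.0048) with trimmed-mean scaling. Without the 3 libraries with muscle transcripts, 2 members were higher and 26 lower, Cpt1b (-0.52) and Acadm (-0.42) being added. With trimmed-mean scaling 4 members were higher and 18 lower, Ppara, Hadha, Hadhb, Decr2, Acot12 and Acnat1 losing their calls, and the share of higher calls among all called genes went from 19% to 46.8%. Hadha, Acaa2, Etfb, Decr2, Acot12 and Acnat1 lost their calls without the filter, and Acaa2, Decr2 and Acot12 with only the groups compared.

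**Figure D2:**
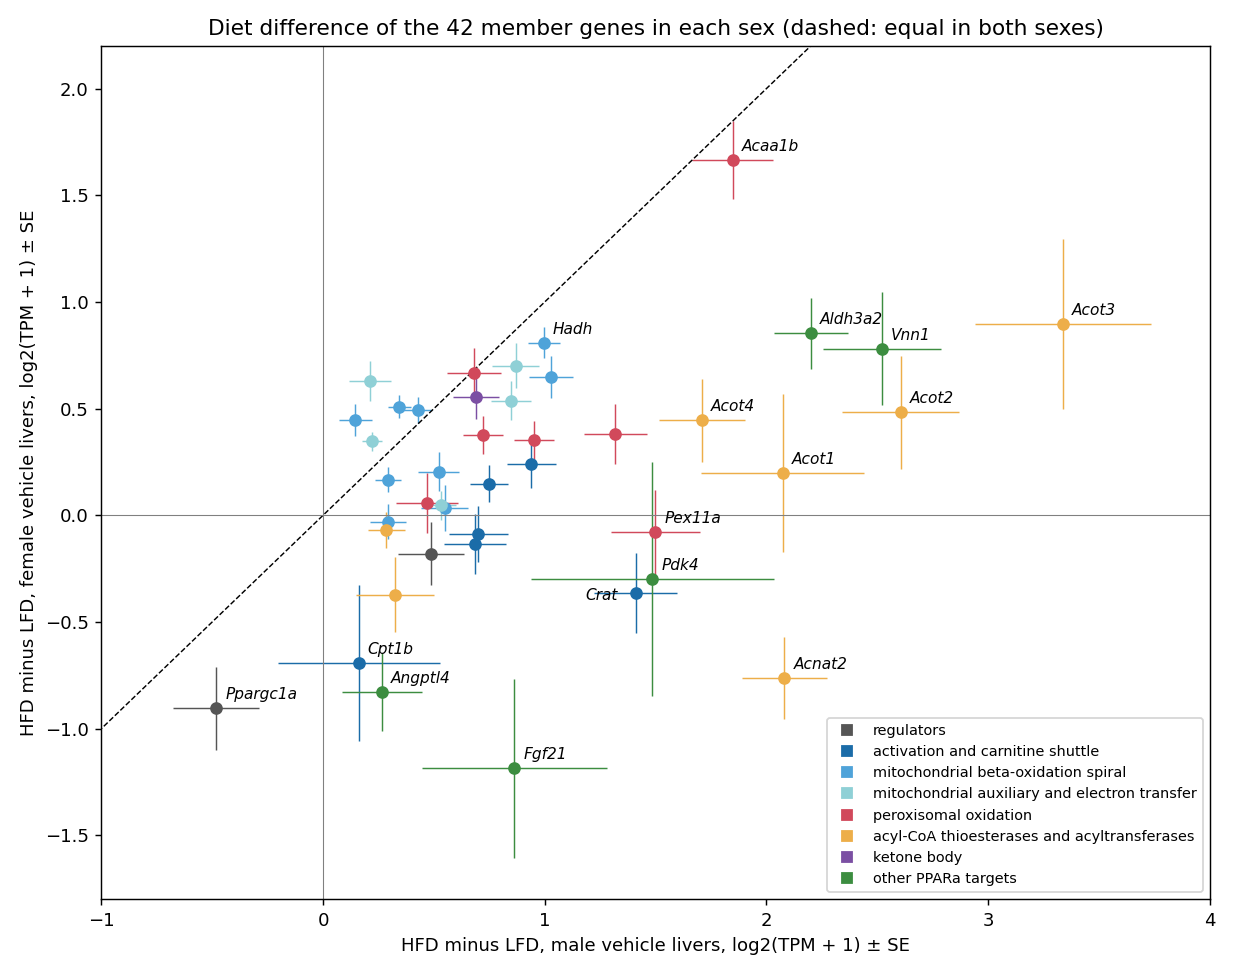
Scatter of the log2(TPM + 1) difference HFD minus LFD of each of the 42 members in vehicle males (horizontal axis) against vehicle females (vertical axis), with bars of 1 SE and a dashed line of equal difference. Acaa1b (1.85 and 1.66) lies by the line, and Acot3 (3.34 and 0.90) and Acnat2 (2.08 and -0.76) lie far below it.

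Levels of the members not given above are listed here as means ± SD (n = 6) in vehicle livers, in the order LFD males, HFD males, LFD females and HFD females. In the shuttle, Slc25a20 was at 47.9 ± 11.4, 91.0 ± 7.21, 80.7 ± 15.3 and 94.4 ± 8.62 TPM. Cpt2 was at 107 ± 20.6, 179 ± 13.1, 167 ± 13.5 and 186 ± 17.5 TPM. Acsl1 was at 182 ± 34.9, 293 ± 58.2, 272 ± 62.3 and 244 ± 28.7 TPM. These 3 genes had their lowest mean in LFD males. Among the dehydrogenases of the spiral, Acadvl was at 236 ± 21.8, 288 ± 15.7, 274 ± 20.96 and 307 ± 9.06 TPM. Acadl was at 214 ± 37.5, 304 ± 16.4, 316 ± 30.9 and 363 ± 18.6 TPM. Acads, which acts on the shortest chains, was at 134 ± 11.7, 181 ± 13.9, 122 ± 9.10 and 172 ± 10.8 TPM. For the trifunctional protein, the alpha subunit gene Hadha was at 106 ± 6.22, 130.2 ± 10.1, 133 ± 18.8 and 129 ± 5.78 TPM. The beta subunit gene Hadhb was at 49.9 ± 4.25, 73.4 ± 4.99, 71.2 ± 9.83 and 72.6 ± 5.94 TPM. Echs1, the hydratase of short chains, was at 61.8 ± 7.16, 78.3 ± 2.45, 61.6 ± 3.11 and 88.0 ± 2.96 TPM. Hadha stayed within a narrow range, from 106 to 132.5 TPM by group mean. Eci1 was at 212 ± 35.3, 387 ± 52.1, 275 ± 48.9 and 443 ± 45.5 TPM. Decr1 was at 88.6 ± 12.4, 159.9 ± 18.7, 122 ± 23.0 and 176 ± 15.8 TPM. Of the electron carriers, Etfa was at 485 ± 15.6, 565 ± 17.0, 501 ± 24.6 and 637 ± 41.7 TPM. Etfb, its partner, was at 139.5 ± 23.7, 160.4 ± 11.9, 141 ± 5.52 and 219.7 ± 26.6 TPM, and Etfdh at 71.6 ± 4.71, 104 ± 2.89, 102 ± 13.3 and 105 ± 8.76 TPM. The mean of Etfb was highest in HFD females. Eci2 was at 157 ± 45.7, 209.9 ± 22.4, 248 ± 48 and 255 ± 19.02 TPM. Acot12 was at 85.5 ± 9.36, 104 ± 9.92, 116 ± 16.3 and 110.0 ± 11.2 TPM. Acnat1 was at 31.5 ± 6.18, 39.9 ± 8.62, 53.0 ± 11.7 and 40.5 ± 7.97 TPM. None of these 3 spanned as much as the tandem thioesterases. Fgf21 in males was at 6.57 ± 4.52 TPM on the LFD and 11.2 ± 3.09 TPM on the HFD, and Angptl4 at 63.1 ± 15.3 and 74.96 ± 14.0 TPM.

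Among mixture-exposed livers the diet comparison gave the following values. In males 31 members rose and 0 fell, where 31.7% of all genes rose and 6.92% fell (38.6% called), with a median of 0.68 over the members and 0.15 over all genes. The groups did not overlap for 25 members in the higher direction (12.9% of all genes). Of the 35 members that rose in vehicle males, 30 (85.7%) rose here too, and these were 96.8% of the 31; Ppara, Acsl1, Eci2, Acot1 and Acot12 rose in vehicle males and were not called in mixture males and Fgf21 was called in mixture males and not in vehicle males. The difference of these diet effects, which equals that of the mixture effects on the 2 diets, was called for 0 members (smallest adjusted p = 0.474). Acaa1b differed by 1.64 (SE 0.18, adjusted p = 2.05e-09), Acot2 by 2.43 (SE 0.26, adjusted p = 9.68e-10) and Vnn1 by 2.14 (SE 0.26, adjusted p = 1.8e-08). Acot3, at 4.26 to 21.1 TPM (median 9.89) on the LFD with mixture and 17.0 to 54.6 TPM (median 39.8) on the HFD with mixture, differed by 1.67 (SE 0.40, adjusted p = 0.000785). Acot1 differed by 0.83 (SE 0.37, adjusted p = 0.0727) and was not called, but was with the replicate block (adjusted p = 0.0323) and with only the groups compared (adjusted p = 0.0386), where Fgf21 lost its call (adjusted p = 0.0845). With trimmed-mean scaling 24 members rose and 1 (Ppargc1a) fell; Cpt1a, Cpt2, Acadvl, Hadha, Echs1, Acaa1a and Etfa lost their calls, Etfa with a change of sign to -0.0029, and the share of higher calls over all genes went from 82.1% to 45.7% as the median over all genes moved from 0.148 to -0.02. Without male HFD mixture replicate 6, the log2 difference of Ppargc1a was -0.61 (adjusted p = 0.00245), 31 members having risen and 1 fallen. The marker sums of the male groups were 110.5 to 158.5 TPM on the LFD and 274.8 to 550.8 TPM on the HFD for stellate cells, 107600 to 123300 and 64360 to 88790 TPM for hepatocytes and 0.162 to 15.6 and 19.8 to 121 TPM for adipose tissue, without overlap. Those of 5 cholangiocyte genes had medians of 62.7 and 247.7 TPM and overlapped, and the part of these markers in the result was not tested.

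In mixture-exposed females 14 members rose and 4 fell on the HFD, where 11.5% of all genes rose and 7.74% fell (19.2% called). The 14 that rose were 77.8% of the 18 that rose in vehicle females; Acadvl, Ehhadh, Decr2 and Vnn1 made up the rest. Those that fell were Angptl4 (-0.96, SE 0.18, adjusted p = 0.000116), Acnat2 (-0.78, SE 0.19, adjusted p = 0.0025), Ppargc1a (-0.67, SE 0.19, adjusted p = 0.0106) and Crat (-0.62, SE 0.19, adjusted p = 0.0165). Of these, 3 had also fallen in vehicle females (75% of each set). Acaa1b rose by 1.26 (SE 0.18, adjusted p = 1.77e-06), Aldh3a2 by 0.67 (SE 0.17, adjusted p = 0.00306), Hadh by 0.65 (SE 0.07, adjusted p = 8.61e-09) and Bdh1 by 0.51 (SE 0.10, adjusted p = 0.000333). Without female LFD mixture replicate 3, Acaa2 and Acaa1a lost their calls, at 0.18 and 0.29, and 12 members rose and 5 fell. Acaa2, Etfb and Acaa1a lost their calls with trimmed-mean scaling, Acaa1a without the filter and Acaa2 with only the groups compared. The hepatocyte genes summed to 111200 to 149100 TPM on the LFD and 80600 to 104500 TPM on the HFD in these females, and 6 adrenal cortex genes to 3.64 to 1642 and 1.45 to 3.26 TPM; their part in the result was not tested.

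Between the sexes, LFD vehicle livers of females held more of most members than those of males; these comparisons share the LFD vehicle males with the male diet comparison above. Of the 42 members 32 were higher in females and 1 (Acaa2) lower, where 17.1% of all genes were higher and 6.61% lower (23.7% called). The median log2 difference, female minus male, was 0.55 over the members and 0.09 over all genes. Groups did not overlap for 16 members in the higher direction, which held for 6.84% of all genes. All 7 thioesterases and acyltransferases and all 5 other PPARa targets were higher in females, with 5 of 6 shuttle genes, 6 of 9 spiral genes and 4 of 7 peroxisomal genes.

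Acot3 was at 4.45, 5.84, 1.12, 6.42, 0.542 and 3.73 TPM in LFD vehicle males and 74.3, 221, 78.3, 154, 178 and 119 TPM in LFD vehicle females. The groups did not overlap, with a log2 difference of 4.99 (SE 0.40, adjusted p = 1.15e-13). Acnat2 was at 19.7, 13.6, 25.6, 21.1, 25.6 and 11.2 TPM in males and 229, 336, 161, 205, 183 and 176 TPM in females, a log2 difference of 3.41 (SE 0.19, adjusted p = 7.89e-19). Acot1 was at 3.53 to 32.8 TPM (median 12.0) in males and 69.7 to 244 TPM (median 117) in females, a log2 difference of 3.25 (SE 0.37, adjusted p = 2.86e-09). For Acot2 the values were 1.20 to 4.66 TPM (median 2.94) and 12.51 to 27.6 TPM (median 23.1), a log2 difference of 2.49 (SE 0.26, adjusted p = 4.01e-10). For Acot4 they were 8.43 to 16.4 TPM (median 14.2) and 47.2 to 81.9 TPM (median 56.3), a log2 difference of 2.14 (SE 0.19, adjusted p = 5.92e-12). The tandem Acot genes were all higher in females. Acot12, elsewhere in the genome, was higher too, by 0.43 (SE 0.08, adjusted p = 0.000104). Some tandem genes share sequence, so their levels are not fully separate measurements, and the part of gene position was not tested. Acnat1 differed by 0.72 (SE 0.18, adjusted p = 0.00176).

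Outside the thioesterases, Crat was at 10.2 to 25.0 TPM (median 15.5) in LFD vehicle males and 50.2 to 81.2 TPM (median 62.9) in females, a log2 difference of 1.96 (SE 0.19, adjusted p = 2.84e-11). Vnn1 was at 9.31 to 45.9 TPM (median 22.5) and 58.9 to 183 TPM (median 87.7), a log2 difference of 2.04 (SE 0.26, adjusted p = 7.01e-08). Ehhadh was at 164 to 209.6 TPM (median 183) and 321 to 747 TPM (median 458) and Pex11a at 36.9 to 88.6 TPM (median 59.9) and 106 to 177 TPM (median 142), with log2 differences of 1.39 (SE 0.14, adjusted p = 1.13e-10) for Ehhadh and 1.29 (SE 0.20, adjusted p = 2.87e-06) for Pex11a. These members were all higher in females. Aldh3a2 differed by 1.21 (SE 0.17, adjusted p = 2.74e-07) and Fgf21 by 1.20 (SE 0.42, adjusted p = 0.0318). Pdk4 was at 3.86, 3.23, 2.21, 9.26, 4.98 and 2.96 TPM in males and 33.2, 27.1, 143, 30.3, 15.6 and 7.94 TPM in females, a log2 difference of 2.55 (SE 0.55, adjusted p = 0.00046); the female value in replicate 3, one of the libraries with muscle transcripts, was the highest, and without that library the log2 difference was 2.09. In that analysis 33 members were higher and 1 lower. Ppargc1a differed by 0.84 (SE 0.19, adjusted p = 0.00103), and by 0.70 (adjusted p = 0.0013) without the libraries with muscle transcripts. Ppara differed by 0.40 (SE 0.15, adjusted p = 0.046); its call was lost with the replicate block (adjusted p = 0.056), without the filter (adjusted p = 0.0964) and with trimmed-mean scaling (adjusted p = 0.162). The level of Acaa1b, the member with the highest mean over all 48 livers, differed by -0.01 (SE 0.18, adjusted p = 0.978) and was not called, nor was Bdh1 (0.23, adjusted p = 0.106). Acaa2 was lower in females, with a log2 difference of -0.24 (SE 0.07, adjusted p = 0.0155).

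Marker sums that moved with sex on the LFD were those of 8 Kupffer cell and macrophage genes (171 to 464 TPM in males, 361 to 926 TPM in females), 6 endothelial genes (100.4 to 127.5 and 140.8 to 242.0 TPM) and 6 stellate cell genes (129.7 to 171.1 and 179.3 to 247.6 TPM) and 9 exocrine pancreas genes (18.6 to 37.3 and 10.3 to 16.5 TPM), and their part in the result was not tested. With trimmed-mean scaling 26 members were higher and 2 lower in females, with Ppara, Cpt1a, Acadvl, Hadha, Hadh and Eci1 losing their calls, and the share of higher calls over all genes went from 72.1% to 50.6%. Fgf21 lost its call without the filter (adjusted p = 0.0705) and, like Acadvl, Acaa2 and Eci1, with only the groups compared.

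On the HFD 9 members differed between vehicle females and males, and the difference from the LFD is the same contrast as the difference of diet effects given above. In females 8 were higher and 1 lower, where 3.53% of all genes were higher and 8.26% lower (11.8% called), with a median of 0.09 over the members and -0.04 over all genes. Of the tandem thioesterases, Acot3 was at 17.4 to 147 TPM (median 27.3) in males and 180.3 to 322 TPM (median 229) in females, a log2 difference of 2.55 (SE 0.40, adjusted p = 7.94e-06). Acot1 was at 34.4 to 104 TPM (median 54.4) and 103 to 267 TPM (median 144), a log2 difference of 1.37 (SE 0.37, adjusted p = 0.0096). Acot4 was higher by 0.88 (SE 0.19, adjusted p = 0.0015) and Acnat2 by 0.57 (SE 0.19, adjusted p = 0.0432). Acot2 differed by 0.37 (SE 0.26, adjusted p = 0.42) and was not called. The other members higher in females were Ehhadh (0.46, SE 0.14, adjusted p = 0.0261), Etfb (0.45, SE 0.10, adjusted p = 0.00102), Etfa (0.17, SE 0.04, adjusted p = 0.00555) and Echs1 (0.17, SE 0.05, adjusted p = 0.0303). Hsd17b4, the D-bifunctional enzyme, was lower in females, with a log2 difference of -0.39 (SE 0.09, adjusted p = 0.00227), at 509 to 583 TPM (median 545) in males and 387 to 463 TPM (median 405) in females, whereas Ehhadh, the L-bifunctional enzyme, was at 380.3 to 571 and 486 to 796 TPM. With trimmed-mean scaling 9 members were higher and 1 lower, and the share of higher calls over all genes went from 29.9% to 43.8%. Ehhadh and Acnat2 lost their calls without the filter (adjusted p = 0.0571 and 0.0909), and Acnat2 with only the groups compared (adjusted p = 0.0702). The hepatocyte genes summed to 78890 to 90760 TPM in these males and 92790 to 106100 TPM in these females, without overlap, and the adipose genes had medians of 38.8 and 9.67 TPM; their part in the result was not tested.

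**Figure D3:**
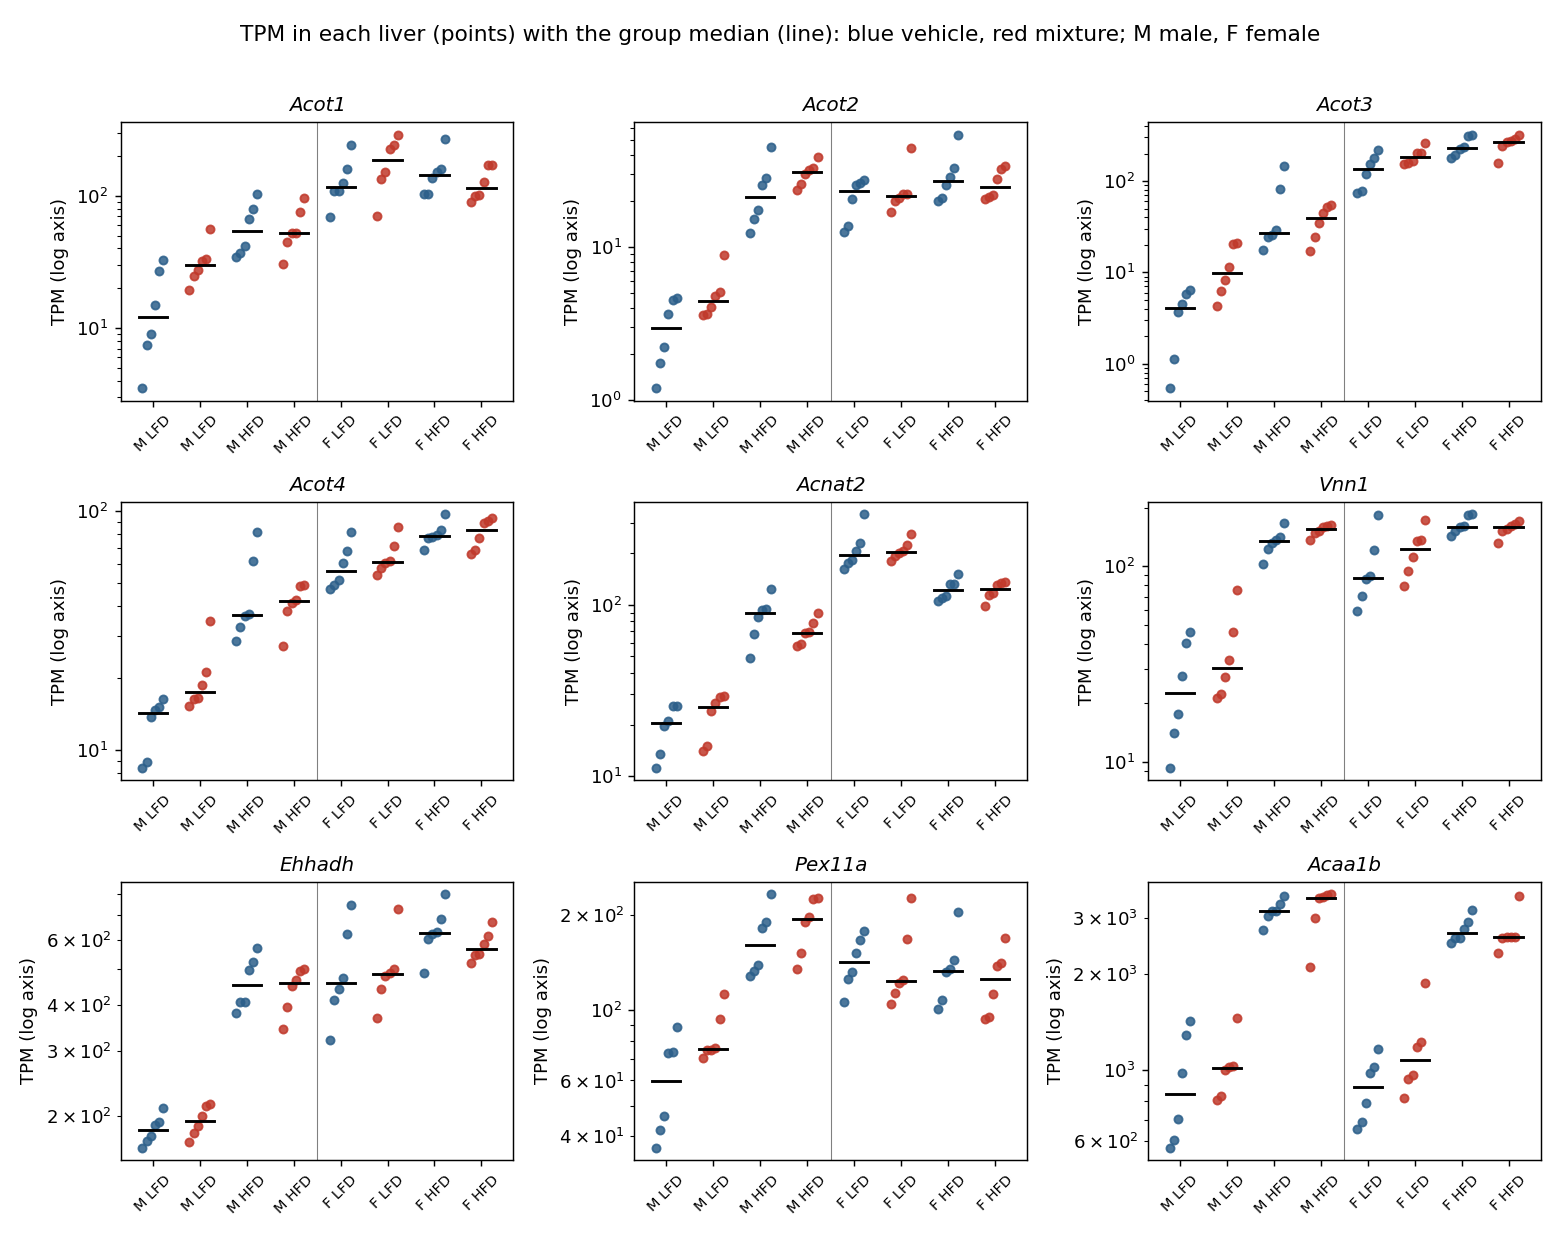
TPM of 9 members (log axis) in each of the 48 livers by group, with the group median as a line; vehicle in blue, mixture in red. Acot3 and Acnat2 are lowest in LFD males and stay higher in females on both diets, and Acaa1b separates the diets in both sexes.

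In mixture-exposed livers the sex comparison gave 27 members higher and 2 lower in females on the LFD, where 16.6% of all genes were higher and 4.92% lower (21.5% called). These 27 were all among the 32 higher in vehicle females. Acot3 differed by 4.06 (SE 0.40, adjusted p = 6.3e-11), Acnat2 by 3.18 (SE 0.19, adjusted p = 9.96e-18), Acot1 by 2.43 (SE 0.37, adjusted p = 2.49e-06) and Pdk4 by 2.17 (SE 0.55, adjusted p = 0.00332). Female replicate 3 had the highest Pdk4 value, 112.8 TPM, and without it the log2 difference was 1.71 (adjusted p = 0.00127). Acads and Acaa2 were lower in females, with log2 differences of -0.17 and -0.20 (adjusted p = 0.0401 and 0.0498), and without the libraries with muscle transcripts both calls and that of Acnat1 were lost, with 27 higher and 0 lower. On the HFD with mixture 6 members were higher in females and 5 lower, where 5.56% of all genes were higher and 9.73% lower (15.3% called). The higher ones were Acot3 (2.81, SE 0.40, adjusted p = 8.57e-07), Acot1 (1.15, SE 0.37, adjusted p = 0.0276), Acot4 (0.97, SE 0.19, adjusted p = 0.000286), Acnat2 (0.79), Ehhadh (0.40) and Etfb (0.39). The lower ones were Fgf21 (-1.17, adjusted p = 0.0494), Pex11a (-0.59), Hadhb (-0.41), Hsd17b4 (-0.40) and Cpt1a (-0.37). The Hadhb mean of the male HFD mixture livers was 95.8 TPM, and 83.41 TPM without replicate 6, a library with muscle transcripts. Fgf21 and Cpt1a lost their calls under 4 of the 6 alternatives (all but the replicate block and the fit without the muscle libraries), Pex11a with scaling and without the filter, and Hadhb with only the groups compared. Without the filter the 11 became 6, Ehhadh and Acot1 being lost too. On the LFD 7 members lost their calls without the filter and 6 with only the groups compared. With trimmed-mean scaling the counts were 19 higher and 2 lower on the LFD and 6 higher and 2 lower on the HFD, and the share of higher calls over all genes went from 77.1% to 45.8% and from 36.3% to 54.9%. On the HFD without those libraries 5 were higher and 6 lower, Ehhadh losing its call. Kupffer cell and macrophage genes summed to 122.1 to 286.6 TPM in LFD mixture males and 288.4 to 568.3 TPM in females, and to 275 to 482.9 and 483.4 to 1043 TPM on the HFD. Endothelial (105 to 129.4 and 152.9 to 187.7 TPM) and stellate cell sums (110.5 to 158.5 and 174.9 to 251.9 TPM) on the LFD, adipose sums on the HFD (19.8 to 121 and 1.77 to 12.9 TPM) and exocrine pancreas sums on both diets did not overlap either, and their part in the result was not tested. Both comparisons were added after the data were seen.

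The mixture left no member past the threshold in any of the 4 combinations of sex and diet. limma called 0 of 42 in LFD males, HFD males, LFD females and HFD females, where 0.0379%, 0.0948%, 0.0379% and 0.0126% of all genes were called, and 0 for the mean of the 4 mixture effects, where 0.0948% were. None of the 6 alternative analyses called a member in these 5 comparisons. In HFD males the share of higher calls among all called genes went from 73.3% to 52.9% with trimmed-mean scaling. At an unadjusted p under 0.05, 20 members were higher and 0 lower in LFD males, 5 and 0 in HFD males, 5 and 1 in LFD females, 0 and 0 in HFD females, and 13 and 1 for the mean. The matching shares of members were 47.6%, 11.9%, 14.3%, 0% and 33.3%, beside 5.25%, 9.39%, 9.5%, 4.24% and 11.7% of all genes. Without the 3 libraries with muscle transcripts the counts were 22 and 0, 2 and 0, 5 and 1, 0 and 0, and 13 and 0.

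In LFD males 39 of the 42 members had a mixture difference above 0, as did 7649 of all 15820 genes. The LFD vehicle males used here also enter the male diet comparison and the LFD sex comparison of vehicle livers. They enter the tests of differences between effects that involve males on the LFD too. These results are therefore not independent of one another. The median was 0.20 over the members and -0.0038 over all genes, and the groups overlapped for each member. Members vary together within a liver, so such counts of signs are not counts of independent genes. Acot3 was at 4.45, 5.84, 1.12, 6.42, 0.542 and 3.73 TPM with vehicle and 6.27, 20.3, 11.5, 8.25, 4.26 and 21.1 TPM with mixture. Its log2 difference was 1.49 (SE 0.40, unadjusted p = 0.000537, adjusted p = 0.386). Acot1 was at 15.1, 27.2, 7.498, 32.8, 3.53 and 8.99 TPM and 19.6, 33.1, 31.9, 24.7, 27.7 and 56.1 TPM, a log2 difference of 1.23 (SE 0.37, unadjusted p = 0.00183, adjusted p = 0.533). In both genes the vehicle and mixture livers overlapped. Acot2 differed by 0.62 (SE 0.26, unadjusted p = 0.0223, adjusted p = 0.91), Acot4 by 0.61 (SE 0.19, unadjusted p = 0.00297, adjusted p = 0.626) and Vnn1 by 0.58 (SE 0.26, unadjusted p = 0.0327, adjusted p = 0.936). The smallest adjusted p belonged to Cpt2, at 89.3 to 135 TPM (median 98.2) with vehicle and 128 to 148 TPM (median 131) with mixture, a log2 difference of 0.33 (SE 0.09, unadjusted p = 0.000446, adjusted p = 0.353). Pex11a (0.52), Aldh3a2 (0.49), Eci2 (0.43), Crat (0.41), Acsl1 (0.36), Slc25a20 (0.35), Acadm (0.29), Acaa1a (0.26), Decr1 (0.22), Decr2 (0.22), Acadl (0.21), Hadh (0.19), Acot12 (0.17) and Acadvl (0.12) made up the rest of the 20.

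In HFD males the 5 were Pdk4 (1.498, SE 0.55, unadjusted p = 0.00915, adjusted p = 0.381), Crat (0.41), Hadhb (0.33), Acadl (0.24) and Decr1 (0.20). Pdk4 was at 6.89, 18.8, 8.95, 15.7, 10.6 and 24.6 TPM with vehicle and 22.2, 17.1, 16.8, 44.9, 38.1 and 291 TPM with mixture, the highest value being that of replicate 6, the library with 25180 TPM of muscle genes. Without it the log2 differences were 0.92 for Pdk4, 0.26 for Crat, 0.18 for Hadhb and 0.14 for Acadl. In LFD females Etfb, at 134 to 151 TPM (median 139.7) with vehicle and 155 to 226 TPM (median 164) with mixture, differed by 0.31 (SE 0.10, unadjusted p = 0.00231, adjusted p = 0.287), and its groups did not overlap, which held for 0.392% of all genes in that direction. Acaa1b (0.38), Acaa1a (0.34), Eci1 (0.26) and Acadm (0.21) were also above 0, and Ppara was below it, at 98.7 to 149.7 TPM (median 114) and 60.5 to 119.8 TPM (median 96.7), a log2 difference of -0.38 (SE 0.15, unadjusted p = 0.0148, adjusted p = 0.418). Without the libraries with muscle transcripts the differences were 0.34 for Etfb (adjusted p = 0.332) and -0.40 for Ppara (adjusted p = 0.434). In HFD females 36 of 42 members had a difference below 0, as did 6050 of all 15820 genes. The median was -0.06 over the members, against 0.03 over all genes.

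Tests of the difference between mixture effects also called 0 members with limma, in each of the 6 alternatives too. For HFD minus LFD in males, 0.00632% of all genes were called, and at an unadjusted p under 0.05, 0 members were higher and 5 lower (7.32% of all genes passed this limit): Acot3 (-1.67, SE 0.56, unadjusted p = 0.00499, adjusted p = 0.474), Acot1 (-1.25), Acot4 (-0.70), Cpt2 (-0.29) and Acot12 (-0.24). For HFD minus LFD in females, 0.00632% of all genes were called and 4 members were lower at an unadjusted p under 0.05 (Acadm, Eci1, Etfa and Etfb), a limit that 4.64% of all genes passed. For female minus male on the LFD, 0% of all genes were called and 0 members reached an unadjusted p under 0.05, against 4.25% of all genes. Without the 3 libraries with muscle transcripts 6 members were lower at that limit for the first of these tests, 5 for the second and 0 for the third.

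**Figure D4:**
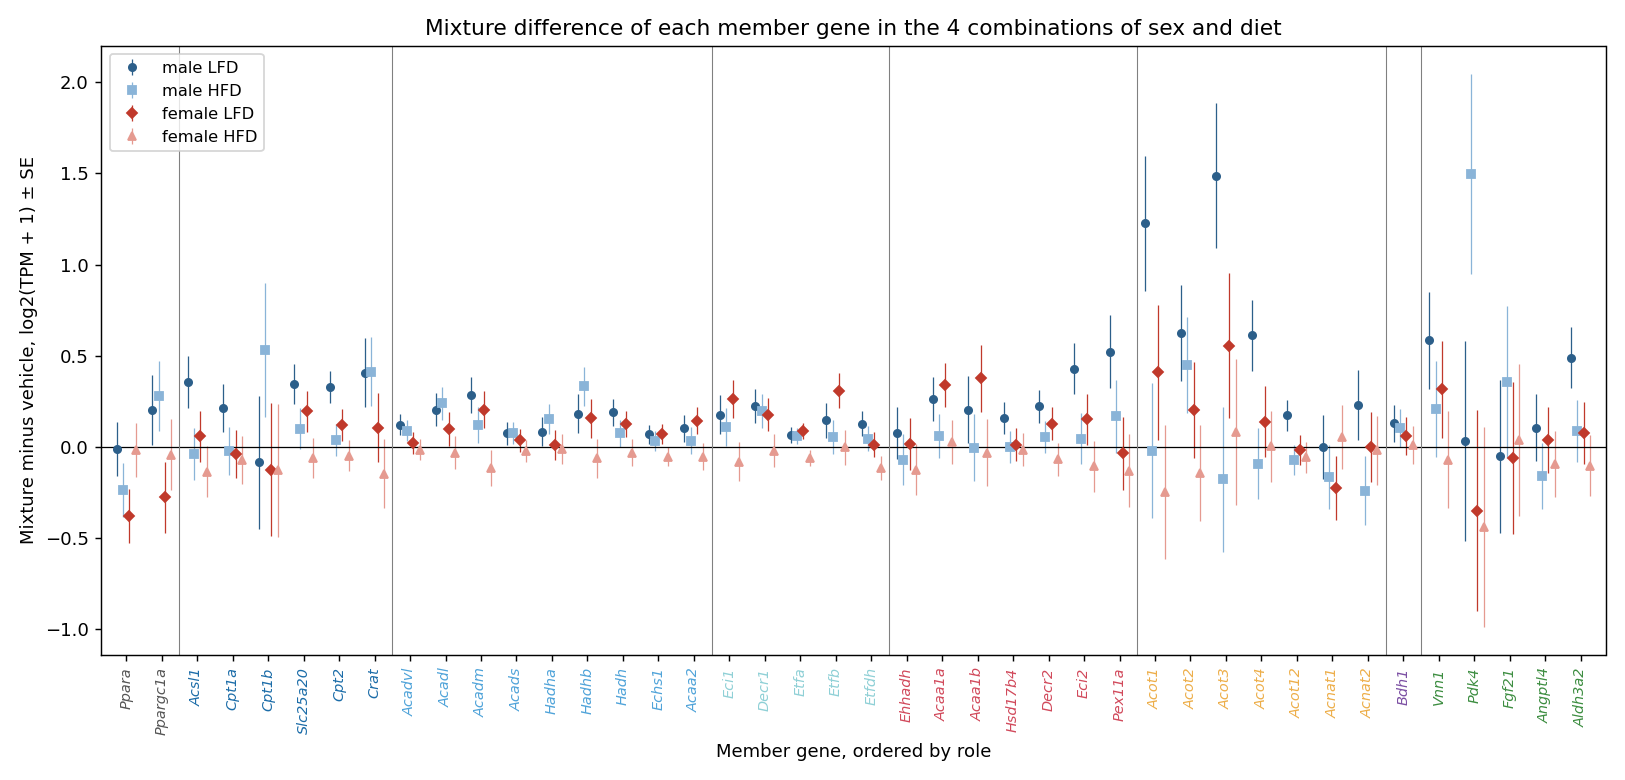
Mixture minus vehicle difference in log2(TPM + 1) of each member, ordered by role, in the 4 combinations of sex and diet; bars are 1 SE. Acot3 (1.49) and Acot1 (1.23) in LFD males and Pdk4 (1.498) in HFD males lie highest, and no point passed the test.

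The libraries with muscle transcripts set some members' extremes. Cpt1b, which skeletal muscle expresses, was at 22.03, 7.26 and 2.93 TPM in male HFD mixture replicate 6, female LFD vehicle replicate 3 and female LFD mixture replicate 3. Pdk4, also abundant in muscle, was at 291, 143 and 113 TPM there. In the last of these libraries 6 adrenal cortex genes summed to 1642 TPM and 6 adipose genes to 341.4 TPM. In male HFD mixture replicate 6 the 9 hepatocyte genes summed to 64360 TPM, below the 75980 to 164500 TPM of the 45 others. Ppargc1a was at 3.74, 3.04, 3.97, 3.49, 4.24 and 10.2 TPM across the male HFD mixture livers, highest in replicate 6. In vehicle males, where none of the 3 libraries enters the comparison, the log2 difference of Ppargc1a was -0.48. Its limma adjusted p was 0.0143 once the 3 were left out of the fit, and 0.0524 with them in. Vehicle males were not free of muscle transcripts. Male LFD vehicle replicates 4 and 5 held 805.5 and 372.9 TPM of muscle genes and were kept. The median over the 45 libraries kept was 28.28 TPM.

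**Figure D5:**
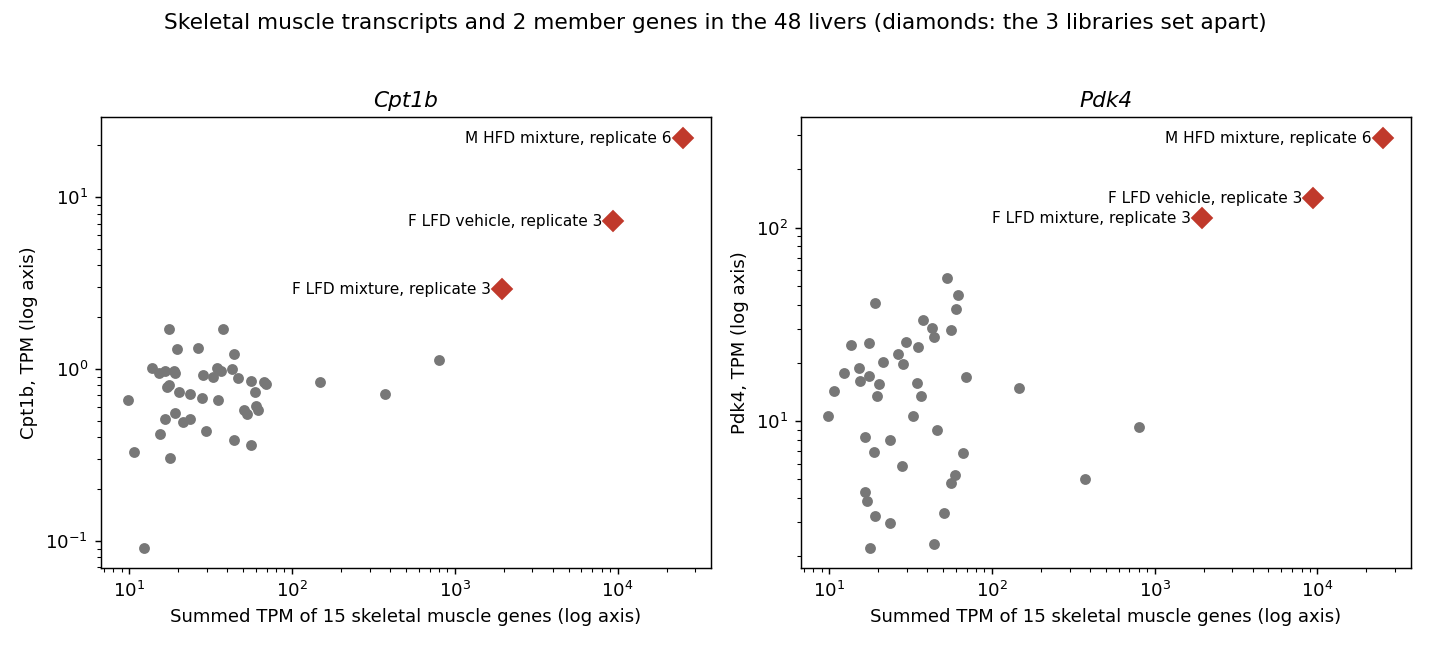
Summed TPM of 15 skeletal muscle genes against Cpt1b and Pdk4 (both axes log) in the 48 livers, with the 3 libraries set apart as diamonds. Cpt1b reaches 22.03 TPM and Pdk4 291 TPM in the library with 25180 TPM of muscle genes.

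Within groups the members' extremes gathered in a few livers. Female LFD vehicle replicate 2 had the group's highest value for 30 of the 42 members, male HFD vehicle replicate 6 for 28, female HFD vehicle replicate 6 for 26 and female LFD mixture replicate 4 for 24. Male LFD vehicle replicate 2 was highest for 22, and replicate 5 of that group was lowest for 16. In male LFD mixture livers replicate 5 was lowest for 20 members and replicate 2 highest for 17. Members were therefore not independent of one another within a liver. How often these livers held the extreme over all genes was not counted, so the pattern may not be particular to the members.

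Other genes of the pathway were taken from 6 lists of 106 genes, of which 103 passed the filter (Acss1, Cpt1c and Ucp3 did not). Their counts on the HFD stand beside 25.6% of all genes that rose and 5.82% that fell in vehicle males. In vehicle females 14.4% of all genes rose and 13.5% fell. Of 5 other ketone body genes, 2 rose and 0 fell in vehicle males on the HFD, with Slc16a7, a monocarboxylate carrier, at 1.37 (SE 0.14, adjusted p = 1.75e-10) and the mitochondrial thiolase Acat1 at 0.84 (SE 0.10, adjusted p = 3.03e-08). In females 3 of the 5 rose, Bdh2 (0.85, SE 0.13, adjusted p = 2.25e-06), Slc16a7 (0.72, SE 0.14, adjusted p = 8.67e-05) and Acat1 (0.66, SE 0.10, adjusted p = 4.77e-06), and 1 fell, the monocarboxylate carrier Slc16a1 (-0.56, SE 0.19, adjusted p = 0.0263). Of 13 further genes of peroxisomal oxidation and import, 6 rose and 0 fell in males, and 6 rose and 1 fell in females, among them Scp2 (0.77, SE 0.08, adjusted p = 1.86e-09). Of 15 peroxisome biogenesis genes, 11 rose in males and 7 in females, and 0 fell in either.

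Of 28 further mitochondrial and malonyl-CoA control genes, 16 rose and 2 fell in males and 11 rose and 6 fell in females. The shares of all genes, for these and the next lists, were 25.6% risen and 5.82% fallen in males. In females they were 14.4% and 13.5%. Of 22 other PPARa targets, 13 rose and 2 fell in males, among them Cd36, a fatty acid transporter (2.97, SE 0.23, adjusted p = 2.51e-13), and Cyp4a14, a fatty acid hydroxylase (3.97, SE 0.46, adjusted p = 4.29e-09); in females 5 rose and 2 fell. The difference of the diet effects was lower in females for 12 of the 22 and higher for 2, where 14.8% of all genes were lower and 3.47% higher. Of 20 partners and coregulators, 1 (Pparg, 1.54 (SE 0.21, adjusted p = 2.79e-07)) rose and 3 fell in males, and 2 rose and 7 fell in females, with Lpin1, a coactivator of PPARa as well as a phosphatidate phosphatase, at -2.96 (SE 0.38, adjusted p = 9.77e-08) in females. Between the sexes on the LFD, 12 of the 22 other targets were higher in females and 3 lower, where 17.1% of all genes were higher and 6.61% lower. Cyp4a14 differed by 6.51 (SE 0.46, adjusted p = 1.56e-15) and Cyp4a12a by -6.26 (SE 0.31, adjusted p = 1.55e-20). For the mixture, limma called 0 of the 103 genes in each of the 4 combinations of sex and diet, where 0.0126% to 0.0948% of all genes were called. At an unadjusted p under 0.05, 17 were higher and 5 lower in LFD males, 3 and 7 in HFD males, 3 and 7 in LFD females and 2 and 0 in HFD females. In the same order, 5.25%, 9.39%, 9.5% and 4.24% of all genes passed this limit in either direction, so the counts in HFD males and LFD females were near the share of all genes.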

How the data were processed

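Liver poly(A) RNA of 48 mice was measured in 8 groups of 6. RNA came from an RNeasy plus mini kit, per the labels' protocols. The tools are STAR 2.5.2b, Trimmomatic 0.36, FastQC and DESeq2, on GRCm38, per the submitters' processing notes, which state no roles. Read counter, annotation, gene lengths and strand setting were not given in the sources used here. Values deposited by the authors are TPM per gene and library, not pooled, which sum to 1000000 in each library and keep no depth. The depth and the precision it gives are therefore unknown, and because these are not counts no count test was used.

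Values were tested as log2(TPM + 1), a pseudocount of 1, with limma 3.58.1 in R 4.3.3 (moderated tests with a mean-variance trend) in one fit of the 8 groups with 40 residual degrees of freedom. Of 49315 genes, the 15820 that reached 1 TPM in 6 or more libraries were tested, and p-values were adjusted over all of them within each of 17 comparisons. Of these, 2 comparisons (females against males among mixture livers) were added. The code was tested on simulated data. The 174 genes with a blank name and the 191 with a shared name were kept by identifier. No pair of libraries was near identical (highest correlation 0.983).

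The members and all gene lists were chosen with earlier results of these data known. Each member is accounted for by role; levels are printed for those called in at least 1 comparison, for Ppara and for Cpt1b, and genes outside the members come from 6 lists, at most 4 called genes a list and comparison. Alternatives were a trimmed-mean scaling (trimming 30% of log ratios and 5% of abundances from both ends), testing without the filter, a pseudocount of 0.1, only the groups compared, a block for the replicate number and, added after seeing the data, a fit without 3 libraries with muscle transcripts. Positions are 1-based. Some genes of the other lists are not reported here and are not counted in them.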

Additional observations from a re-analysis of the deposited data

Results flagged for a closer look

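In 25 of 336 pairs of a member and a group (7.44%), 1 liver lay farther from the other 5 than Dixon's 95% limit for 6 samples allows; chance gives about 1 in 20. Of the 25, 8 lay in the 3 libraries with muscle transcripts. In male HFD mixture replicate 6, Cpt1b (22.03 TPM), Pdk4 (291.1 TPM), Hadhb (157.7 TPM), Crat (97.7 TPM) and Ppargc1a (10.2 TPM) were high and Acaa1b (2110 TPM) was low. Cpt1b was high in female LFD vehicle replicate 3 (7.26 TPM), and Pdk4 in female LFD mixture replicate 3 (112.8 TPM). Among the other libraries, male LFD mixture replicate 2 was high for Acadm (243.2 TPM), Eci1 (305.3 TPM) and Acot2 (8.89 TPM), and replicate 3 of that group for Cpt2 (148.1 TPM). Female HFD vehicle replicate 6 was high for Crat (65.0 TPM), Acadl (399.2 TPM) and Hadha (140.1 TPM), and replicate 1 of that group for Etfa (719.9 TPM). Female HFD mixture replicate 2 was high for Acaa1b (3496 TPM) and Aldh3a2 (490.0 TPM). Acot2 was high in female LFD mixture replicate 4 (44.3 TPM) and Etfdh in male HFD vehicle replicate 6 (109.3 TPM). Low values were those of Acadm in male HFD vehicle replicate 1 (290.3 TPM), Cpt1b and Acaa1a in replicate 5 of that group (0.662 and 132.4 TPM), Eci2 in male HFD mixture replicate 3 (173.3 TPM) and Angptl4 in female LFD mixture replicate 6 (75.3 TPM).

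The diet difference was unlike in the sexes by the test of the difference itself (limma, female minus male, vehicle) for 26 members. That test called 18.2% of all genes (14.8% lower, 3.47% higher). The values of the 26 members follow. The values were -2.84 for Acnat2, -2.44 for Acot3, -2.12 for Acot2, -2.05 for Fgf21, -1.87 for Acot1, -1.77 for Crat, -1.74 for Vnn1, -1.58 for Pex11a and -1.35 for Aldh3a2. They were -1.27 for Acot4, -1.09 for Angptl4, -0.94 for Ehhadh, -0.82 for Acsl1, -0.79 for Cpt1a, -0.70 for Slc25a20, -0.70 for Acnat1, -0.67 for Ppara, -0.60 for Cpt2 and -0.60 for Hsd17b4. The smallest in size were -0.52 for Hadhb, -0.48 for Etfdh, -0.35 for Acot12, -0.35 for Decr2 and -0.32 for Hadha, and those above 0 were 0.42 for Etfb and 0.30 for Acaa2. Ppara, Hadha, Hadhb, Decr2, Acot12 and Acnat1 lost their calls with trimmed-mean scaling. Hadha, Acaa2, Etfb, Decr2, Acot12 and Acnat1 lost theirs without the filter.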

How the results depend on the processing

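Of 290 member values tried under 6 alternatives, 212 kept their direction and side of the threshold in all of them. Calls were lost, with the sign kept, for 40 values with trimmed-mean scaling, 27 without the filter, 21 with only the groups compared, 8 without the 3 libraries with muscle transcripts, 3 with a pseudocount of 0.1 and 1 with the replicate block (Ppara between LFD vehicle females and males, adjusted p = 0.056). In the same order, 6, 0, 10, 11, 3 and 7 values were newly called. In addition, Etfa in mixture males, HFD against LFD, lost its call with scaling and changed sign (-0.0029, adjusted p = 0.975), and the cause was not tested. The count of members that differed between HFD mixture females and males was 11, and 6 without the filter, where more genes were tested. Over all genes the counts were 2419 (15.3%) and 2159. With the replicate block 36 members were called for diet in vehicle males and 24 in vehicle females, against 35 and 22. Acot3 and Acot4 were then called in the females (0.90 and 0.44). Over all genes 5051 and 4499 were called with the block, against 4963 (31.4%) and 4424 (28%). The replicate numbers did not pair the samples (mean correlation of same-numbered deviations 0.017, lowest -0.207; 11 of 48 libraries lay closest to their own number), and no samples were matched by them. Counts over all genes moved by more than 1.5 times for the mixture in LFD males (6, and 3 with only the groups compared), HFD males (15, 1 with only the groups compared and 47 without the muscle libraries), LFD females (6, and 3 with scaling), HFD females (2, and 4 without the muscle libraries), the mean (15, and 8 with scaling) and the male mixture-by-diet term (1; 2 without the filter, 4 with the block, 12 without the muscle libraries). Depth is unknown, so no limit from depth could be set; fold changes of members near 1 TPM, such as Cpt1b, rest on the pseudocount.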

Other observations

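Beside the members, several peroxisomal genes outside the list differed between the sexes on the LFD in both directions. Of 13 genes of peroxisomal oxidation and import, 4 were higher and 4 lower in vehicle females, where 17.1% of all genes were higher and 6.61% lower. Scp2, the sterol carrier protein with thiolase activity, was lower in females, with a log2 difference of -1.29 (SE 0.08, adjusted p = 1.32e-16), and for Phyh, which starts the breakdown of phytanic acid, it was -0.995 (SE 0.08, adjusted p = 2.08e-14). Abcd2, a peroxisomal fatty acyl-CoA transporter, was higher by 2.199 (SE 0.22, adjusted p = 5.67e-11), and Hacl1, a lyase of alpha-oxidation, by 1.12 (SE 0.16, adjusted p = 3.44e-07). On the HFD 3 of the 13 were higher and 4 lower in vehicle females, where 3.53% of all genes were higher and 8.26% lower. The p-values are limma's, adjusted over all genes.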
